A study of Danio rerio with 2 samples.

Results

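The mTOR complex genes on the zebrafish mTOR signaling PCR array were examined in larvae that lack NOD1. They were taken by gene symbol, as the rows of *mlst8*, *deptor*, *akt1s1*, *mtor*, *mapkap1* and *telo2* and all rows whose symbol begins with *rptor* or *rictor*. This gave 7 of the 84 pathway genes, namely *mtor* (NM_001077211), *mlst8* (NM_199877), *deptor* (NM_001077320), *telo2* (NM_001030218), *rptor* (XM_001919253), *akt1s1* (XM_687419) and *rictorb* (XM_001921872). No row carries the symbol *mapkap1*, and a row described as MAPKAP1-like is given beside the 7. The homozygous *NOD1-1IS*-/- larvae carry a short insertion in *NOD1* made with the Cas9/gRNA system, and the WT larvae are of AB/TU background. Both were untreated and were collected at 10 dpf (days post-fertilization) as 3 biological replicates per genotype, each a pool of 200 to 250 whole larvae. The mutants are 1 line, and whether the WT larvae were their siblings is not given in the sources used here, so the *NOD1* genotype and other differences between the lines cannot be told apart. In whole larvae, fewer cells of a type and less RNA per cell cannot be told apart either. The paper reports delayed hatching and reduced larval survival in the mutants. The part of stage or survival in the differences below was not tested.

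The kinase mTOR is the catalytic core of a pair of complexes that join nutrient and growth factor signals to cell growth. In mTORC1, the scaffold raptor (*rptor*) brings substrates such as S6 kinase and the 4E-binding proteins to the kinase, and PRAS40 (*akt1s1*) restrains it until it is phosphorylated by Akt. In mTORC2, rictor and SIN1 (*mapkap1*) define a complex that phosphorylates Akt and related kinases. Both complexes share mLST8, a WD40 protein that binds the kinase domain, and DEPTOR, which binds mTOR and inhibits it. TELO2 is not a lasting subunit but a co-chaperone by which mTOR and related kinases are folded and assembled. These roles are known mainly from mammalian cells and yeast.

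The array reads each gene by quantitative PCR with SYBR Green in 1 well per replicate. The threshold cycle (Ct), at which the fluorescence of a well crosses a set level, is lower by 1 for each doubling of template. None of the 534 wells with gene primers lacked a Ct, and the latest was read at 28.98 cycles. Expression is given as ΔCt, for which the average Ct of the reference genes *hprt1*, *nono* and *rpl13a* was subtracted within each replicate, so that a lower ΔCt stands for more transcript. That mean was 19.26 to 19.40 cycles in *NOD1-1IS*-/- replicates and 19.50 to 19.73 cycles in WT replicates. Of the 7 control wells of each replicate, which hold none of these genes, 4 gave no Ct. Those with a Ct were taken as the wells with control template. They averaged 19.50 cycles in *NOD1-1IS*-/- and 19.71 cycles in WT. The transcript *nod1* itself is not on the array. Cell type markers were taken as 2 genes, and both had replicates that did not overlap between the genotypes on ΔCt, as did 38.1% of the pathway genes. On raw Ct the genotypes overlapped for *acta1b*. The insulin gene *ins* of pancreatic beta cells had a ΔCt of 1.06 to 1.42 in *NOD1-1IS*-/- and 1.63 to 2.48 in WT, and the skeletal muscle actin *acta1b* had −2.85 to −1.74 in *NOD1-1IS*-/- and −3.52 to −2.95 in WT. Their part in the results below was not tested.

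Of the 7 mTOR complex genes, the shared subunit *mlst8* rose and the inhibitor *deptor* fell in *NOD1-1IS*-/- larvae, each by 1.29-fold. Both calls depended on the reference genes. The log2 fold change of *mlst8* was above 0 under every normalization but was not called with *nono* alone (0.16, adjusted p = 0.395 from limma). Over 20 alternatives, which also left out replicates or changed the fit, *mlst8* was called in 14 and *deptor* in 4. The values of *deptor* ran from −0.58 to 0.63. The kinase *mtor*, its co-chaperone *telo2*, the scaffolds *rptor* and *rictorb* and the inhibitor *akt1s1* did not pass the test. Genes were called where the p-value of limma, adjusted after Benjamini-Hochberg over all 84 pathway genes, was under 0.05. By this rule 2 of the 7 were called, 1 lower and 1 higher, against 22.6% of all pathway genes in either direction, 19.0% lower and 3.57% higher. Each direction thus rests on a single gene. The median log2 fold change of the 7 genes was −0.070, and that of the 84 was −0.11. On ΔCt, all 3 replicates of one genotype lay apart from those of the other for 3 of the 7, *mlst8*, *deptor* and *mtor*, against 38.1% of the pathway genes.

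**Figure D1:**
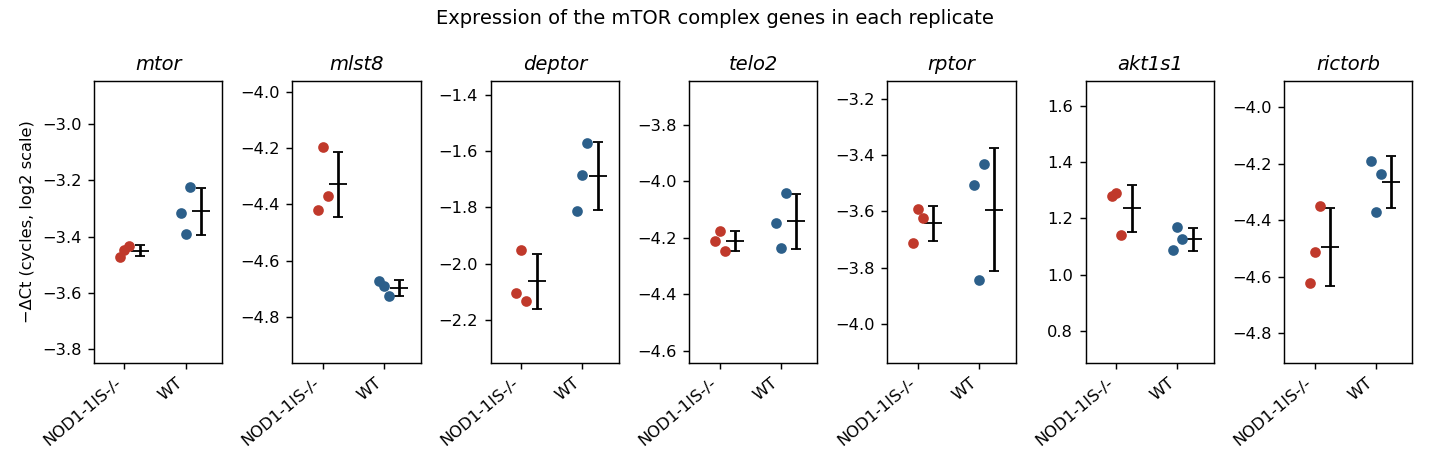
Expression of the 7 mTOR complex genes as −ΔCt in cycles (vertical axis, each panel spanning 1 cycle around its own level), with the 3 NOD1-1IS-/- replicates left and the 3 WT replicates right in each panel. Points are replicates and bars are the mean ± SD (n = 3). The mlst8 replicates of NOD1-1IS-/- lie above and those of deptor and mtor below all WT replicates, whereas the genotypes overlap for the other 4 genes.

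The called subunits are both common to mTORC1 and mTORC2, and they differed in direction. For *mlst8*, ΔCt was 4.42, 4.20 and 4.37 cycles in *NOD1-1IS*-/- replicates 1, 2 and 3, and 4.67, 4.69 and 4.73 cycles in the WT replicates. Relative to the 3 reference genes, all *NOD1-1IS*-/- pools had more *mlst8* transcript than any WT pool, with an SD of 0.12 cycles in *NOD1-1IS*-/- and 0.03 cycles in WT (n = 3 each). The log2 fold change was 0.37 (standard error 0.10, 95% interval 0.13 to 0.60, adjusted p = 0.0362 from limma). The difference was 4.36 times the SD between replicates. The call was lost in some fits that left out 1 replicate. The adjusted p from limma was 0.0938 without *NOD1-1IS*-/- replicate 2, 0.0998 without WT replicate 1, 0.0613 without WT replicate 2 and 0.101 without WT replicate 3, with log2 fold changes of 0.30, 0.38, 0.37 and 0.35. Without a WT replicate the value thus stayed near 0.37, and why the call was lost was not tested. The loss was not particular to *mlst8*, as calls over the 84 genes fell too. From 16 lower and 3 higher they went to 12 and 1, 11 and 1, and 10 and 0 without WT replicate 1, 2 and 3. Without *NOD1-1IS*-/- replicate 2 they were 13 and 1. For *mlst8* the adjusted p from limma was past the threshold without *NOD1-1IS*-/- replicate 1 or 3.

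For *deptor*, ΔCt was 2.11, 1.95 and 2.13 cycles in *NOD1-1IS*-/- replicates 1, 2 and 3, and 1.81, 1.69 and 1.57 cycles in the WT replicates. Relative to the 3 reference genes, every *NOD1-1IS*-/- pool had less *deptor* transcript than every WT pool. On raw Ct, at 21.35 to 21.48 cycles in *NOD1-1IS*-/- and 21.19 to 21.50 cycles in WT, the genotypes overlapped. Raw Ct does not remove a shift shared by all wells of a replicate. The log2 fold change was −0.37 (standard error 0.11, 95% interval −0.62 to −0.13, adjusted p = 0.0383 from limma). Of the 6 fits that left out 1 replicate, only that without *NOD1-1IS*-/- replicate 2 kept it past the threshold (adjusted p = 0.0427). The adjusted p from limma was 0.0984 without *NOD1-1IS*-/- replicate 1, 0.0743 without *NOD1-1IS*-/- replicate 3, and 0.0566, 0.0813 and 0.128 without WT replicate 1, 2 and 3, with log2 fold changes between −0.43 and −0.31. In the assembly GRCz12tu, *deptor* was the only one of the 7 genes on the chromosome of *nod1*, on which 4 of 83 matched pathway genes lie.

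The kinase *mtor* was measured with the least spread of the 7, with a pooled SD of 0.06 cycles, the third smallest among the 84 genes. Its ΔCt was 3.47, 3.45 and 3.43 cycles in *NOD1-1IS*-/- and 3.32, 3.39 and 3.22 cycles in WT. The replicates did not overlap, with less transcript in *NOD1-1IS*-/-, but this turned round on raw Ct, where *mtor* was read earlier in *NOD1-1IS*-/- (mean 22.79 cycles) than in WT (22.95 cycles), again without overlap. Wells with control template were read at 19.25, 19.69 and 19.55 cycles in *NOD1-1IS*-/- replicates 1, 2 and 3, and at 19.70 to 19.71 cycles in WT. Raw Ct does not remove a shift shared by the wells of a replicate. The part of such a shift in the *mtor* values was not tested. The log2 fold change of *mtor*, −0.14 (standard error 0.10), had a 95% interval of −0.36 to 0.082 and an adjusted p of 0.349 from limma. This interval spans 0.777 to 1.06 times the WT level and does not cover the choice of reference. With *nono* alone the log2 fold change was −0.34, and with *b2m* alone it was 0.32. The co-chaperone *telo2* had a ΔCt of 4.18 to 4.25 cycles in *NOD1-1IS*-/- and 4.04 to 4.23 in WT, which overlapped. Its log2 fold change was −0.070 (95% interval −0.30 to 0.16, adjusted p = 0.661 from limma).

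Of the mTORC1 genes, neither passed the test. The scaffold *rptor* had a ΔCt of 3.71, 3.59 and 3.62 cycles in *NOD1-1IS*-/-, within the WT values of 3.51, 3.84 and 3.43 cycles. WT replicate 2 was low and set most of its spread (SD 0.06 in *NOD1-1IS*-/- and 0.22 in WT). The log2 fold change was −0.049 (95% interval −0.33 to 0.23, adjusted p = 0.815 from limma), and it was 0.032 without WT replicate 3. The inhibitor *akt1s1* was by far the most abundantly read of the 7, with a ΔCt of −1.28, −1.29 and −1.14 cycles in *NOD1-1IS*-/- and −1.09, −1.17 and −1.13 cycles in WT. Replicates 1 and 2 of *NOD1-1IS*-/- were above all WT replicates, and replicate 3 was among them. The log2 fold change of 0.11 had a 95% interval of −0.115 to 0.33 (adjusted p = 0.487 from limma), which spans 0.923 to 1.26 times the WT level.

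The mTORC2 genes did not pass the test either. The scaffold *rictorb* had a ΔCt of 4.62, 4.51 and 4.35 cycles in *NOD1-1IS*-/- and 4.19, 4.37 and 4.24 cycles in WT. *NOD1-1IS*-/- replicates 1 and 2 lay below the level of every WT replicate, and replicate 3 overlapped with WT replicate 2. On the log2 scale the fold change was −0.23 (standard error 0.11, 95% interval −0.48 to 0.021, adjusted p = 0.185 from limma). The row LOC100537196, which the deposited table describes as a MAPKAP1-like subunit of this complex and which RefSeq now names *mapkap1*, lay outside the symbol rule and was picked with its values already known. Its ΔCt was 5.28, 4.97 and 5.12 cycles in *NOD1-1IS*-/- and 5.49, 5.49 and 5.22 cycles in WT. Its log2 fold change was 0.28 (95% interval −0.0035 to 0.55, adjusted p = 0.157 from limma). Only *NOD1-1IS*-/- replicate 1 reached into the WT range.

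**Figure D2:**
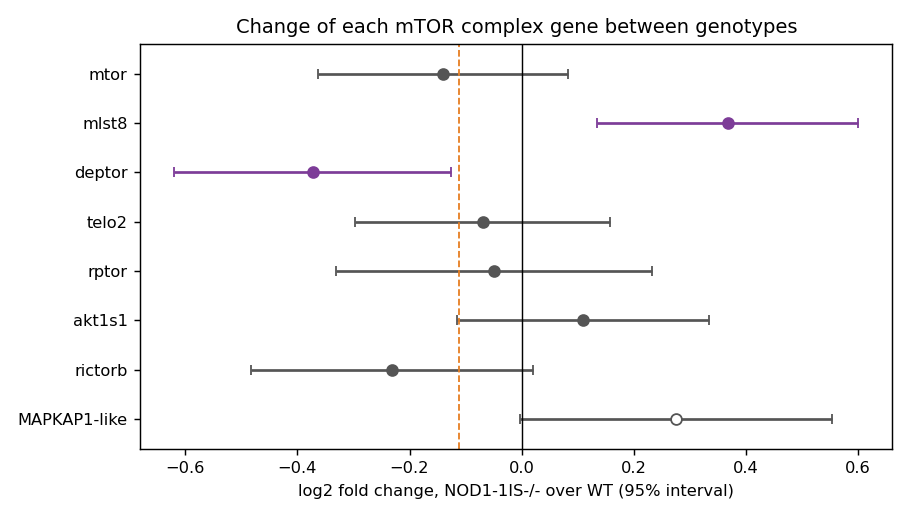
Log2 fold change of each gene, NOD1-1IS-/- over WT (horizontal axis), with its 95% interval from limma; the open circle is the MAPKAP1-like row, outside the 7. Purple marks the genes with an adjusted p under 0.05, mlst8 at 0.37 and deptor at −0.37, and the dashed line is the median of the 84 pathway genes at −0.11.

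Ratios of one mTOR complex gene to another within a replicate use no reference gene, since the Ct of one is subtracted from that of the other on the same plate. All 21 pairs of the 7 genes were compared. In 12 of them, or 57.1%, *NOD1-1IS*-/- and WT replicates did not overlap, against 45.4% of the 3486 pairs of all pathway genes. For each of the 12 the two-sided exact permutation test gave p = 0.1, the smallest that 3 replicates against 3 allow (0.175 after adjustment over the 21 pairs), so no single pair could pass the threshold. The largest change was that between the 2 subunits called. As these had the highest and the lowest log2 fold change of the 7 genes, their pair had to come out largest. It is thus no support separate from the 2 calls. The Ct of *mlst8* exceeded that of *deptor* by 2.31, 2.25 and 2.24 cycles in *NOD1-1IS*-/- and by 2.86, 3.01 and 3.16 cycles in WT. The ratio of *mlst8* to *deptor* was thus 1.67-fold higher in *NOD1-1IS*-/- (log2 difference of *deptor* over *mlst8* −0.74, standard error 0.09), and between −0.81 and −0.67 with each replicate left out.

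The gene *mlst8*, with the highest log2 fold change of the set, was higher relative to each of the other 6. Relative to the kinase *mtor* it was higher in *NOD1-1IS*-/- by a log2 difference of 0.51 (standard error 0.09), or 1.42-fold, and relative to *rictorb* by 0.60 (standard error 0.11), or 1.51-fold. Relative to *telo2* the difference was 0.44, relative to *rptor* 0.42, and relative to *akt1s1* 0.26 (*akt1s1* over *mlst8*, −0.26). None of these 6 ratios overlapped between the genotypes, beside 45.4% of all pairs of pathway genes that did not overlap. For *deptor*, 5 of 6 ratios did not overlap, the exception being that to *rictorb*, with a log2 difference of −0.14 (standard error 0.15, exact permutation p = 0.5). As *mlst8* and *deptor* are the ends of the order, high counts for both are in part set by that order. Relative to *mtor*, *deptor* was lower by a log2 difference of −0.23 (standard error 0.08).

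By log2 fold change, *mtor*, *telo2*, *rptor* and *rictorb* all lie between *akt1s1* and *deptor*, so they were bound to differ less than the full set. Their ratios to one another had log2 differences from −0.18 to 0.091 over 6 pairs. Of these, only *mtor* over *telo2* did not overlap, at −0.071 (standard error 0.03). The ratio of *rictorb* to *rptor*, the scaffolds of mTORC2 and mTORC1, had a log2 difference of −0.18 (standard error 0.10, exact permutation p = 0.2). The ratio of *rptor* to *telo2* differed by 0.021. In every *NOD1-1IS*-/- replicate the MAPKAP1-like row was higher relative to *rictorb* than in any WT replicate (log2 difference 0.51, exact permutation p = 0.1). This was not particular to *rictorb*, as the same held relative to *deptor* (0.65), *mtor* (0.42), *telo2* (0.35) and *rptor* (0.32). Relative to *mlst8* it overlapped, with a log2 difference of −0.092 (exact permutation p = 0.6), and so it did relative to *akt1s1*, with 0.17. Among all pairs of pathway genes, 45.4% did not overlap.

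**Figure D3:**
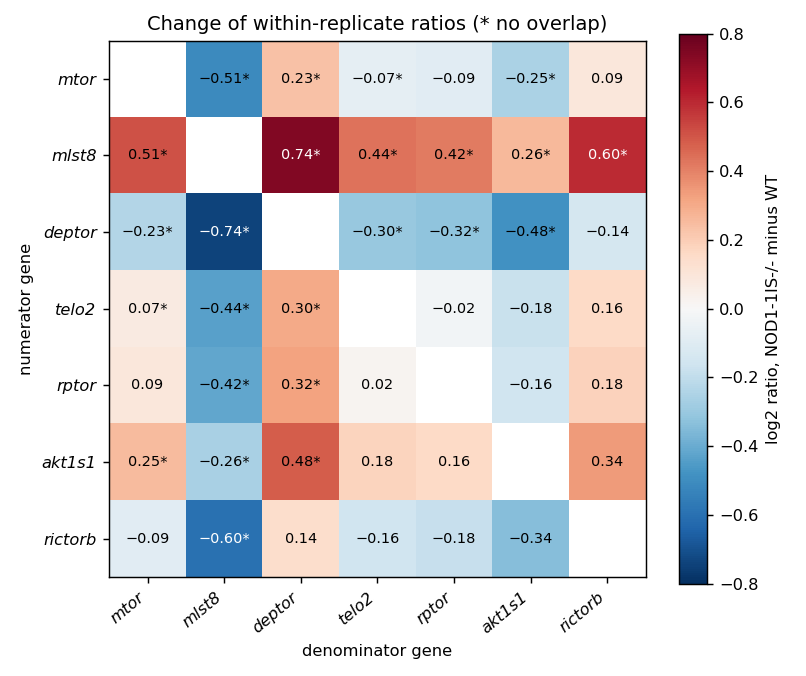
Change in the log2 ratio of the row gene (vertical axis) to the column gene (horizontal axis), NOD1-1IS-/- minus WT, from the Ct values of the same replicate. An asterisk marks ratios whose 3 NOD1-1IS-/- and 3 WT replicates did not overlap; the mlst8 row is positive against all 6 other genes, up to 0.74 against deptor.

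The choice of reference genes moves all genes by one amount, so it decides the level of each change but not the order of the 7. In this order *mlst8* was the highest, followed by *akt1s1*, and *deptor* was the lowest, below *rictorb*, whichever reference was used. On raw Ct, with no reference, *deptor* differed by 0.070 cycles and *rictorb* by −0.071, while *mlst8* differed by −0.67 and *akt1s1* by −0.41. The replicates did not overlap on raw Ct for 5 of the 7 genes, against 50.0% of the pathway genes, and *deptor* (exact permutation p = 0.5) was among those that did. Of the 3 reference genes, *nono* differed by −0.51 cycles between the genotypes, against −0.19 for *hprt1* and −0.21 for *rpl13a*. The wells with control template differed by −0.21 cycles. With *hprt1* and *rpl13a* only, *mlst8* was called at 0.47 on the log2 scale, whereas *deptor* was at −0.27 and was not (adjusted p = 0.122 from limma). With *nono* alone, *deptor* was at −0.58 (adjusted p = 0.00247 from limma). Over all settings the median log2 fold change of the 84 genes ran between −0.31 with *nono* alone and 0.89 with *acta1b* alone, and the calls among them ran between 29 lower and 1 higher with *nono* alone and 3 lower and 55 higher with *acta1b* alone, against 16 lower and 3 higher in the main setting. Relative to the median of the 84 genes, the log2 fold changes of the main setting were 0.48 for *mlst8*, 0.22 for *akt1s1*, 0.063 for *rptor*, 0.042 for *telo2*, −0.029 for *mtor*, −0.12 for *rictorb* and −0.26 for *deptor*.

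**Figure D4:**
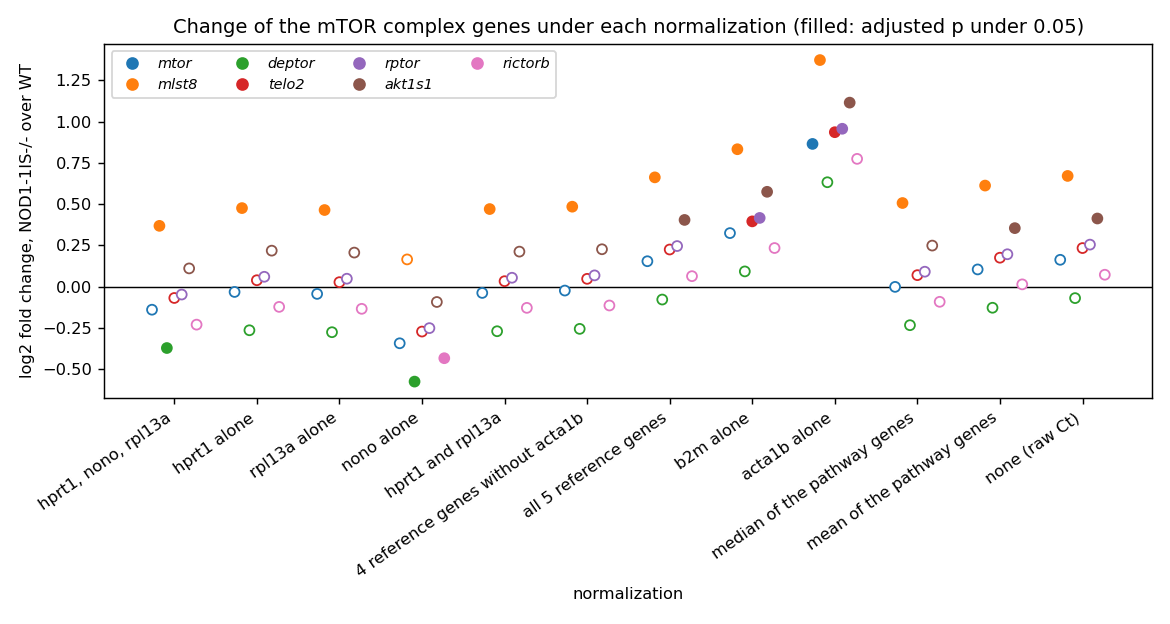
Log2 fold change, NOD1-1IS-/- over WT (vertical axis), of the 7 genes under 12 normalizations (horizontal axis), filled where the adjusted p from limma was under 0.05. The 7 genes shift together, mlst8 stays highest and deptor lowest, and deptor is above 0 with b2m alone and acta1b alone.

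The order of the 7 genes by Ct was nearly the same in all replicates. Ct values of different primer pairs compare levels only roughly, since amplification and product length differ. The gene *akt1s1* was read first, at a mean of 18.3 cycles, the third earliest of the 84, followed by *deptor* 3.06 cycles later and *mtor* between 1.30 and 1.70 cycles after that. The steps that follow were small, with *rptor* 0.24 cycles after *mtor*, *telo2* 0.56 after *rptor* and *rictorb* 0.20 after *telo2*, yet each held in 6 of 6 replicates. Only *mlst8* and *rictorb* changed places. In *NOD1-1IS*-/-, *mlst8* preceded *rictorb* by 0.20 and 0.32 cycles in replicates 1 and 2 and followed it by 0.02 in replicate 3, whereas in WT it was the last of the 7 in all 3 replicates, by 0.32 to 0.49 cycles.

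The profiles of the pathway genes most like each of the 7 were found from the root mean square difference of −ΔCt over the 6 replicates, each gene centred on its own mean. All profiles share the reference mean of their replicate, which cancels in this difference. The 2 nearest to *mlst8* were *ulk1b*, an autophagy kinase, at 0.12 cycles and the MAPKAP1-like row at 0.12. Of the 7 genes, *mlst8* lay farthest from its nearest gene. The difference includes the change between genotypes, so *mlst8*, at one end of the order, was prone to lie far from others. Its median difference from the other pathway genes was 0.27 cycles, against 0.16 for *mtor* and 0.17 for *telo2*. The nearest to *deptor* were the small GTPase gene *rhoab* at 0.086 and *akt2* at 0.090. The genes *mtor* and *telo2* were each other's nearest, at 0.045 cycles, and were followed by *hrasb* for *mtor* at 0.054 and *fkbp1aa* for *telo2* at 0.050. The nearest to *rictorb* was *mtor* at 0.092, and those to *rptor* were *chuk* at 0.036 and *pik3c3* at 0.045. Those to *akt1s1* were the 4E-binding protein gene *eif4ebp1* at 0.060 and *fkbp8* at 0.090.

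The counts of the other pathway lists are read against the 19.0% of all 84 genes called lower, the 3.57% called higher and the 27 of 84 with an unadjusted p under 0.05. Of the 9 mTORC1 substrates and their targets on the array, 0 passed the limma test and 2 had an unadjusted p under 0.05, with log2 fold changes from −0.33 to 0.28. Of the 7 kinases of the family that mTORC2 phosphorylates, 3 were lower, among them *akt2l*, with −6.30 on the log2 scale (adjusted p = 8.39e-09 from limma). Of the 4 genes of the TSC-Rheb switch 1 was lower, *ddit4* with −1.87, and of the 3 Rag GTPases 1 was lower, *rragd* with −2.35. Of the 7 AMPK subunits 2 were lower, *prkab2* with −0.81 and *prkaa2* with −0.51, and of the 3 FKBP immunophilins 1 was lower, *fkbp1ab*, a relative of the protein through which rapamycin acts on mTORC1, with −0.56. The medians of the lists ran from −0.35 in the mTORC2 kinases to −0.018 in the immunophilins, beside −0.070 in the 7 mTOR complex genes.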

How the data were processed

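The columns of the Ct table name the genotype of each replicate (3 *NOD1-1IS*-/- and 3 WT). The authors reverse transcribed 1000 ng of total RNA and ran 40 cycles of SYBR Green PCR, and deposited raw Ct values, with threshold settings not given in the sources used here. The deposited normalized values, a linear ratio to the reference genes pooled by the authors over the replicates of a genotype, matched *hprt1*, *nono* and *rpl13a* among the 31 combinations of the 5 reference genes (largest log2 difference 4.00e-07). The authors' deposited fold changes were not used. Moderated two-sided tests of −ΔCt were run in limma 3.58.1 (R 4.3.3) without a filter, p-values were adjusted over the 84 genes after Benjamini-Hochberg, and the threshold was 0.05. The fit was tested on simulated data with independent noise per gene, which hold no error shared through the reference genes. The 7 genes and all lists were chosen with earlier results of these data known. Other genes named are the called genes with the lowest and highest log2 fold change of each list, the 2 nearest profiles of each member, and the reference and marker genes. One gene that this rule names is not reported here. The alternatives were 11 other normalizations, each replicate left out, a replicate block, a limma trend with robust prior, an exact permutation test, linear averaging and a limit of 25 cycles on mean Ct. The precision is set by 3 replicates per genotype and 1 well per gene. Chromosomes were taken by accession or symbol from RefSeq's gene table of the assembly GRCz12tu, and coordinates and sequences are not given.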

Additional observations from a re-analysis of the deposited data

How the results depend on the processing

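Values are log2 fold changes, and the 7 genes move together with the reference. With all 5 reference genes *akt1s1* was at 0.40 and called, *deptor* at −0.079, *mtor* at 0.15, *rictorb* at 0.063, *rptor* at 0.25 and *telo2* at 0.22 (0 lower and 2 higher). With *b2m* alone they were 0.57 (called), 0.092, 0.32, 0.23, 0.42 (called) and 0.39 (called), with 0 lower and 4 higher. With *acta1b* alone they were 1.11, 0.63, 0.86, 0.77, 0.96 and 0.94, with 0 lower and 5 higher, and limma then gave all genes 1 standard error, so these p-values may be too small. With the pathway mean in place of reference genes they were 0.35 (called), −0.13, 0.10, 0.013, 0.20 and 0.17, and on raw Ct 0.41 (called), −0.070, 0.16, 0.071, 0.25 and 0.23, each with 0 lower and 2 higher. Of all 84 genes, 7 were called lower and 19 higher with all 5 reference genes, and 5 lower and 39 higher with *b2m* alone. The counts were 3 lower and 55 higher with *acta1b* alone, 9 and 18 with the pathway mean, and 7 and 21 on raw Ct. With 4 reference genes without *acta1b*, *deptor* was at −0.26, *rptor* at 0.067 and *telo2* at 0.047. With *hprt1* and *rpl13a* they were −0.27, 0.053 and 0.032, with *hprt1* alone −0.27, 0.059 and 0.038, with *rpl13a* alone −0.28, 0.047 and 0.026, and with the pathway median −0.23, 0.090 and 0.069, each with 0 lower and 1 higher. In these settings, and without *acta1b*, 9 to 10 of the 84 genes were called lower and 4 to 7 higher. With *nono* alone *mlst8* was at 0.16, *akt1s1* at −0.094 and *rictorb* at −0.43 (called), with 2 lower and 0 higher. Of the 84 genes, 29 were then called lower and 1 higher. The MAPKAP1-like row was called in 6 of these settings. They were all 5 reference genes, *b2m* alone, *acta1b* alone, the pathway mean, the pathway median and raw Ct, which uses no reference. Leaving out 1 replicate gave 0.084 to 0.16 for *akt1s1*, −0.43 to −0.31 for *deptor*, 0.30 to 0.41 for *mlst8*, −0.18 to −0.097 for *mtor*, −0.30 to −0.17 for *rictorb*, −0.17 to 0.032 for *rptor* and −0.12 to −0.020 for *telo2*, with 0 to 1 lower, 0 to 1 higher and 12 to 17 ratios without overlap. Over the 84 genes these fits called 10 to 15 lower and 0 to 4 higher, against 16 and 3 in the main setting. The share of all pairs of pathway genes without overlap was not counted in these fits. With 2 replicates against 3, overlap is avoided more easily. The log2 ratio of *rptor* to *telo2* differed by 0.021, by −0.0056 without *NOD1-1IS*-/- replicate 3, and by −0.057 (without WT replicate 2) to 0.068 over all such fits.

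Equal replicate numbers are not stated to pair the samples, and the deviations of same-numbered replicates correlated at −0.22, 0.09 and −0.05. With a replicate block, *mlst8* at 0.37 (adjusted p = 0.0844 from limma) and *deptor* at −0.37 (0.0815) were not called, giving 0 lower and 0 higher. Of the 84 genes, this fit called 14 lower and 2 higher. The exact permutation test cannot pass the threshold with 3 replicates against 3, so its 0 lower and 0 higher (adjusted p = 0.263 for both genes) say nothing about stability. A trend with a robust prior and the limit on Ct left both called, and linear averaging moved no value by more than the SD between replicates. The trend called 19 lower and 3 higher of the 84 genes. The limit on Ct called 7 lower and 2 higher of the genes it kept. The cause of these changes was not tested beyond the shift of the reference.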
